A study of Mus musculus with 2 samples.

Results

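The 10 genes described here build and supply major histocompatibility complex (MHC) class I, out of 13056 annotated genes in the expression table. They are the heavy chain genes H2-K1, H2-D1, H2-Q7, H2-T22 and H2-T23, the light chain gene B2m, the transactivator gene Nlrc5, and the peptide transport and loading genes Tap1, Tap2 and Tapbp. All 10 symbols were found through their Entrez identifiers. The members were chosen by their place in the pathway and by their FPKM in both libraries, which were already known, so their changes are a description and carry no test. The RNA was that of CD4+ T cells from wild type mice (C57BL/6, aged 6 to 8 weeks) after 48 h of culture towards the T helper 17 (Th17) state. One culture contained wild type antigen presenting cells (the WT-APC library) and the other contained antigen presenting cells transgenic for OX40L, the ligand of the costimulatory receptor OX40 (the OX40L-TG-APC library). T cells in both were wild type, and 5000000 of them went into each RNA preparation. The promoter that drives the transgene, the source of the antigen presenting cells and any pooling of animals are not given in the sources used here. There was 1 library per condition, so every difference below is between 2 libraries and has no replicate check.

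Class I molecules carry peptides cut from cytosolic proteins to the cell surface, where CD8 T cells read them. Each consists of a polymorphic heavy chain and the invariant light chain beta 2 microglobulin. The TAP transporter moves the peptides into the endoplasmic reticulum, and tapasin, the product of Tapbp, holds empty heavy chains at the transporter until a peptide fits. Nearly all nucleated cells, T cells included, express the pathway. Its promoters are known to carry a kappa B element read by NF-kB, an interferon response element read by IRF factors, and an X box and a Y box where RFX, CREB/ATF and NF-Y proteins assemble and recruit NLRC5.

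The windows of 250 bases before a RefSeq start of the genes are shown because these elements lie there. Windows came from RefSeq on GRCm38.p6 and were matched for 8 of the 10 genes. Where the promoter set held several starts of a gene, the most upstream of them was used. For H2-K1 the RefSeq gene reaches 34000619, so the whole window lies inside it. For H2-Q7 the gene begins at 35439140, so the last bases of the window lie inside it. Letters run 5′ to 3′ on the strand of the gene. Capitals mark matches on either strand to a kappa B palindrome (in H2-K1 and H2-D1), a kappa B site (in B2m), an interferon response element (GAANNGAAA, or a form with 1 more A before the gap, as in B2m), TGACG (X box core) and CCAAT (Y box). The first 3 windows belong to heavy chains, at chr17:34000348-34000597 (minus strand), chr17:35262844-35263093 and chr17:35438905-35439154 (both plus strand).
H2-K1: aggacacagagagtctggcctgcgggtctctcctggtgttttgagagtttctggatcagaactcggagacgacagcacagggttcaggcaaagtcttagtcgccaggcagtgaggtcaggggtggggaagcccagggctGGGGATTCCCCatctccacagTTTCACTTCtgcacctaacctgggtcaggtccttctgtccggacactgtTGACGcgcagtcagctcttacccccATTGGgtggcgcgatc
H2-D1: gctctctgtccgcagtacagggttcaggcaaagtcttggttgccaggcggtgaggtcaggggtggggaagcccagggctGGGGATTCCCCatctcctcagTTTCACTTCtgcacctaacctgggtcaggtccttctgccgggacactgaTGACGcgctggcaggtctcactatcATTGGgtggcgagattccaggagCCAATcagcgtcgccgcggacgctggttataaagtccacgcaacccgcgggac
H2-Q7: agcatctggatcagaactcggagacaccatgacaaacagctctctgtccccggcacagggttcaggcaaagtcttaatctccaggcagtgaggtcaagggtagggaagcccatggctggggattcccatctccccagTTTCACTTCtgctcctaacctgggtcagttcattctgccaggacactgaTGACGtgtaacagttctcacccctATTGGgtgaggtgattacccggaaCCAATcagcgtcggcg
The light chain window lies at chr2:122147437-122147686, the window of the transporter subunit at chr17:34187306-34187555 and that of tapasin at chr17:33919228-33919477, all on the plus strand. Tapasin is shown because its gene was the only member with a lower value in the OX40L-TG-APC library.
B2m: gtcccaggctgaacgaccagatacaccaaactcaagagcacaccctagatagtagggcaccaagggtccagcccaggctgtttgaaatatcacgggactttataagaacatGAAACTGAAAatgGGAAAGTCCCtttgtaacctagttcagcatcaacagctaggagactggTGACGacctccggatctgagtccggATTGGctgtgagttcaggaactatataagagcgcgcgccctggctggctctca
Tap1: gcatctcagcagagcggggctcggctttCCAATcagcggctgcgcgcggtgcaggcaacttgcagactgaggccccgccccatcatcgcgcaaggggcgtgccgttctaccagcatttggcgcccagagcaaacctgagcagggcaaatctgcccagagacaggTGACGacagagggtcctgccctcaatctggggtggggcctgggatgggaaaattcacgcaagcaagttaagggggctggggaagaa
Tapbp: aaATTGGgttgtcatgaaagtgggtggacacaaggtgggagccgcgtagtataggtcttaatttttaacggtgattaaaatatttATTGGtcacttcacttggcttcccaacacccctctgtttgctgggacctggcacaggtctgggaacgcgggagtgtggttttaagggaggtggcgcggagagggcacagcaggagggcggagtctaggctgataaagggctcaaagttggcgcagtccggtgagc

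H2-K1, H2-D1 and H2-Q7 held the elements in 1 order and at nearly 1 spacing. Positions are counted back from -1, the base before the start used. The kappa B palindrome began at -111 in H2-K1 and at -171 in H2-D1. The interferon element began 21 bases further on in both. From the interferon element to the X box core it was 49 bases in H2-K1, H2-D1 and H2-Q7. The next Y box began 25 bases after the X box core in H2-K1, H2-D1 and B2m and 24 bases after it in H2-Q7. The palindrome was in 0.0259% of the 27025 windows of 250 bases, 1 per gene, that the RefSeq table gives, which is 7 windows. The second kappa B form, found in B2m, was in 0.133% of them. The interferon element was in 3.05% in its longer spacing, which H2-T22, H2-T23 and B2m held. It was in 6.35% in the spacing shorter by 1 base that H2-K1, H2-D1 and H2-Q7 held, a form added after the windows were read. TGACG was in 17.8% of all windows and in 6 of the 8 members' windows, and CCAAT was in 34.5% and in all 8. The Tapbp window held 2 Y boxes and no match to the other motifs. The Tap1 window held no kappa B or interferon match, and that of H2-T23 held no kappa B match or X box core. The window of Psmb8, an immunoproteasome gene outside the members, held no match to any of the motifs. Tap1, H2-T23 and Psmb8 all had higher values in the OX40L-TG-APC library. Whether matches go with changes was not tested. Overlapping matches between motifs were not present in the printed windows, and a match is a string of letters, not evidence of binding.

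**Figure D1:**
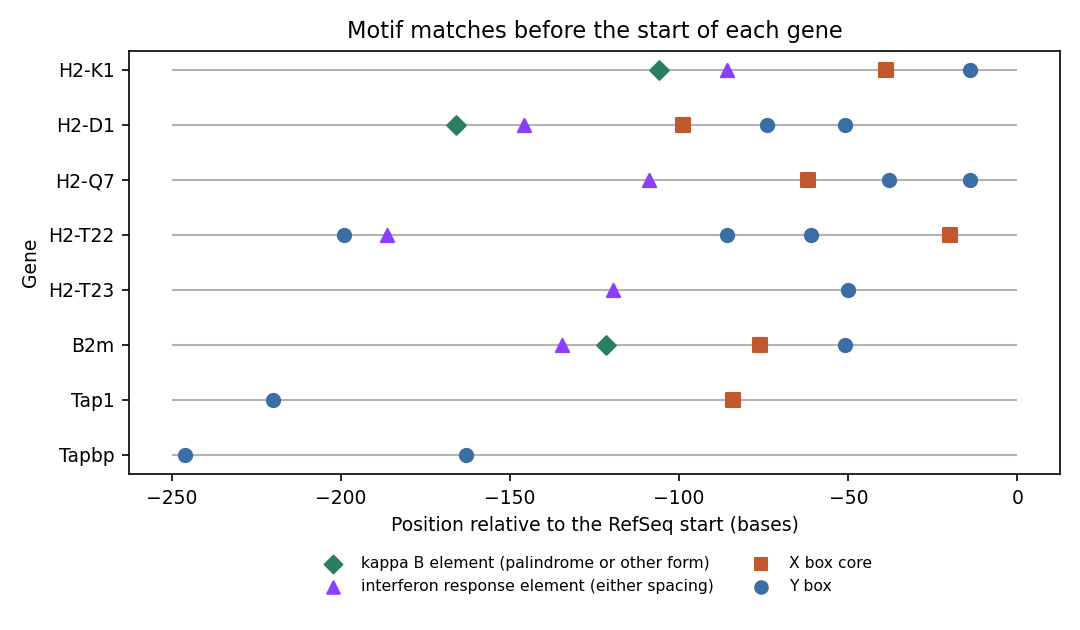
Positions of motif matches (symbols) in the 250 bases before the RefSeq start used for 8 class I and peptide loading genes, in bases from that start (x axis). H2-K1, H2-D1 and H2-Q7 show the same series from interferon element to X box core to Y box. Tapbp shows Y boxes only, Tap1 shows no kappa B or interferon element, and H2-T23 shows no X box core.

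With OX40L-TG APCs, 9 of the 10 genes were higher and Tapbp was lower. Levels are in FPKM, fragments per kilobase of transcript scaled to library size, and changes are differences in log2(FPKM + 1), the OX40L-TG-APC library minus the WT-APC library. The median change was 0.59. It was 0.11 over the 10645 annotated genes that reached 1 FPKM in one library or both, all 10 members among them. The only member past 2-fold was H2-Q7 (1 higher, 0 lower), where 2.26% of the 10645 genes were that much higher and 1.32% that much lower. At least 25% higher on the FPKM + 1 scale were 9 members, and at least 20% lower was 1, where 21.5% of all genes were higher and 7.14% lower by these bounds. Plain ratios of the 8 members other than H2-Q7 and Tapbp lay between 1.36 and 1.66. These bounds are the lowest and highest of those 8 ratios, so all 8 lie inside by construction. The same range held 8.76% of all genes. For H2-K1, H2-D1 and B2m the comparison with genes of like level was closer, since 27.5% of the 149 genes over 300 FPKM in the WT-APC library were at least 25% higher. The direction of the group was known when it was listed, and 280 genes, members included, lay within 0.05 of its median change.

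**Figure D2:**
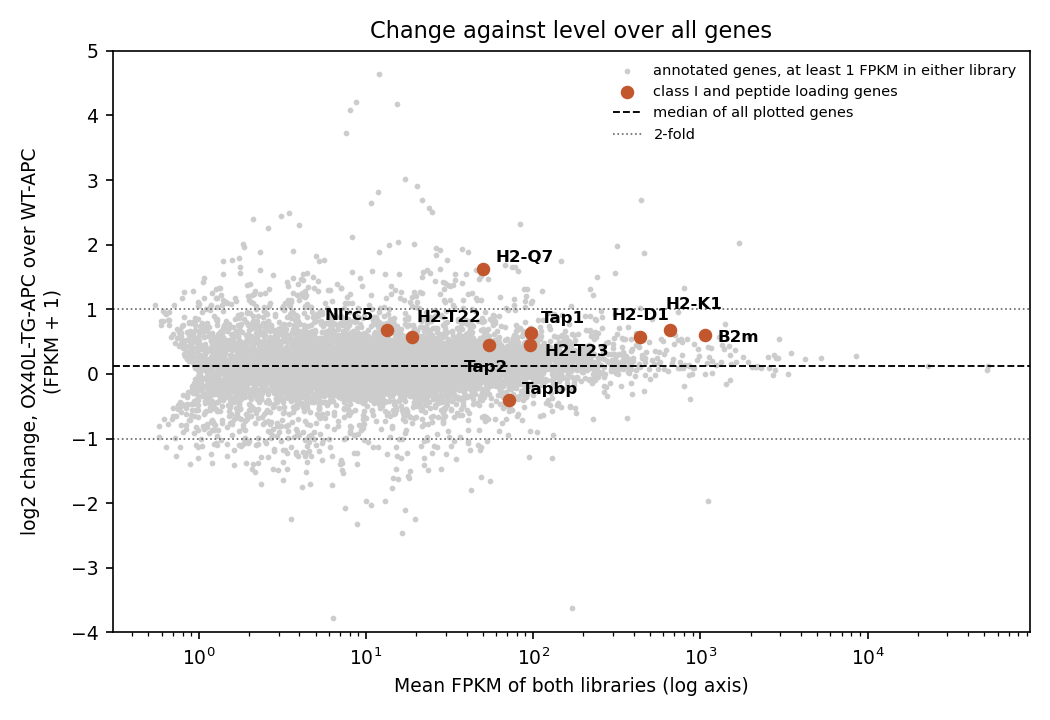
Change between the libraries (y axis, log2 of FPKM + 1) against the mean FPKM of both (log x axis), 1 point per gene, with 1 library per condition. Of the labelled genes, 9 lie above the dashed median of all genes (0.11), H2-Q7 lies above the dotted 2-fold line and Tapbp lies below the median.

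Scaling matters for changes of this size. Setting the median ratio of the 7843 genes with at least 5 FPKM in both libraries to 1 moved the median of all genes to 0.0045 and that of the members to 0.47. Setting the totals equal moved them to -0.05 and 0.41, and left 7 members at least 25% higher, H2-T23 (0.26) and Tap2 (0.27) falling short. No member changed direction under either scaling. Of the genes past 2-fold, 63.1% were higher as deposited, 52.7% with the median ratio set to 1 and 47.3% with equal totals.

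Depth was estimated from the steps that single fragments leave in low FPKM values. With WT APCs the estimate was 24400000 fragments. It was 27919700 with OX40L-TG APCs, which is 1.14 times as many. Ratios below carry a 95% exact Clopper-Pearson interval from estimated fragments, for counting error only. It leaves out variation between cultures and the sharing of reads between copies.

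H2-K1 and H2-D1 encode the classical heavy chains of C57BL/6 mice, K and D, which present peptides to CD8 T cells. H2-K1 (Entrez 14972, chromosome 17, 33996011 to 34000333) stood at 506 FPKM with WT APCs and 813 FPKM with OX40L-TG APCs, a ratio of 1.61 (1.58 to 1.63). H2-D1 (Entrez 14964, chromosome 17, 35259683 to 35267497) stood at 351 and 524 FPKM, with a ratio of 1.49 (1.47 to 1.52). They ranked 84 and 122 by level among all annotated genes in the WT-APC library and 69 and 99 in the other. The level of H2-K1 over that of H2-D1, a ratio within a library that no scaling changes, was 1.44 in the WT-APC library and 1.55 in the OX40L-TG-APC library. Both genes thus differed in 1 direction and by like amounts.

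H2-Q7 encodes a non-classical heavy chain of the Qa-2 group. It stood at 23.8 FPKM in the WT-APC library and 75.9 FPKM in the other, a ratio of 3.18 (2.95 to 3.43) from an estimated 886 and 3226 fragments. Relative to H2-K1 in the same library, its level was 0.0471 in the WT-APC library and 0.0933 in the OX40L-TG-APC library. The locus printed for it (chromosome 17, 35377109 to 35566992) is a merged one that holds 6 other annotated genes of the table. Among them were the heavy chain genes H2-Q4 (31.7 and 49.6 FPKM), H2-Q8 (4.31 and 8.25 FPKM) and H2-Q10 (2.47 and 14.1 FPKM), WT-APC first, and the pseudogene H2-Q5 (2.93 and 6.60 FPKM). Their sum with H2-Q7 was 65.3 FPKM with WT APCs and 154 FPKM with OX40L-TG APCs, a ratio of 2.36. All 5 were higher in the OX40L-TG-APC library, by ratios from 1.56 for H2-Q4 to 5.68 for H2-Q10.

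H2-T23 encodes Qa-1, a non-classical heavy chain that presents leader peptides of other class I chains to CD94/NKG2 receptors. It stood at 80.7 and 110 FPKM, with a ratio of 1.36 (1.301 to 1.43). H2-T22, whose product is a ligand of some gamma delta T cell receptors, stood at 14.96 and 22.8 FPKM, with a ratio of 1.52 (1.38 to 1.68). They are 2 genes of 1 printed locus (chromosome 17, 35994503 to 36058645), which also holds H2-T24, the heavy chain gene there with a lower value in the OX40L-TG-APC library (1.79 and 1.35 FPKM). The interval of its ratio, 0.554 to 1.02, included 1.

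Stretches shared between these genes, and with genes outside class I, limit how well reads could be divided. The longest reading frames of H2-K1 and H2-D1 were identical at 91.5% of 1080 aligned bases, and those of H2-D1 and H2-Q7 at 90.0%. H2-T22 was the least like the others, at 72.1% with H2-K1 and 75.1% with H2-Q7. Windows of 50 bases of the GENCODE transcript that other genes also held, on either strand, made up 8.79% for H2-K1, 14.3% for H2-D1, 29.8% for H2-T23, 34.9% for H2-Q7 and 44.7% for H2-T22. With windows of 100 bases the shares were 0% for H2-K1, 4.64% for H2-D1, 7.28% for H2-T23, 16.4% for H2-Q7 and 14.2% for H2-T22. At 50 bases H2-T23 had 172 partner genes and H2-D1 had 168, among them genes outside class I such as Rab33b (5.48% for H2-T23). The closest partner of H2-Q7 was H2-Q6, with 19.3% of windows of 50 bases, and that of H2-T22 was H2-T10, with 37.9%. H2-Q6 is not among the annotated genes of the table, and H2-T10 stood at 2.80 and 4.48 FPKM. B2m and Nlrc5 shared no window, so their ratios do not rest on how shared reads were divided. Those of H2-Q7, H2-T22 and H2-T23 are uncertain. How the authors counted reads with several matches is not given in the sources used here.

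**Figure D3:**
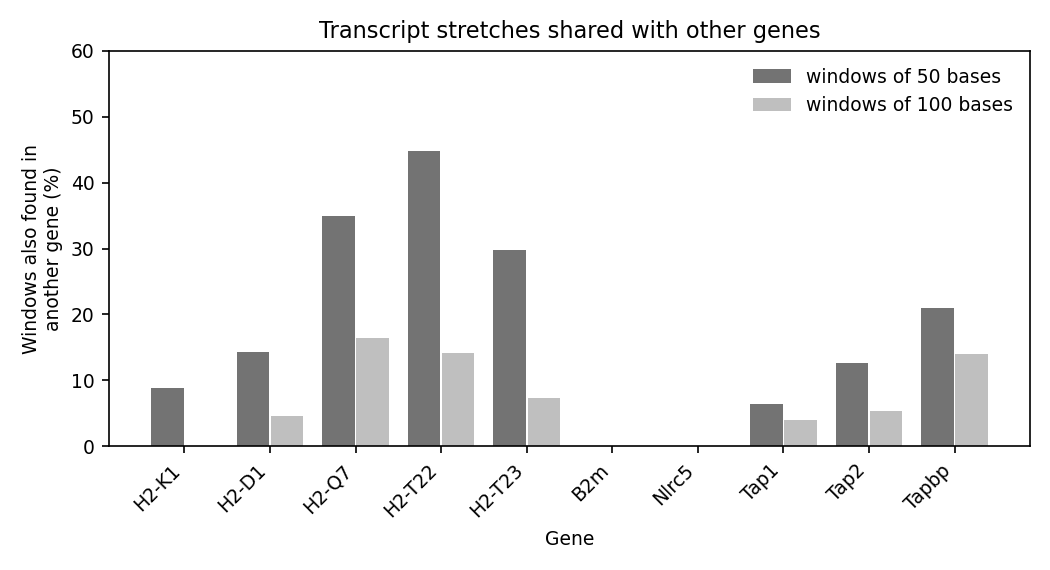
Percent of windows of 50 or 100 bases of each gene's GENCODE transcript that also occur in another gene (y axis), by gene. H2-T22 (44.7%), H2-Q7 (34.9%) and H2-T23 (29.8%) share most at 50 bases, and B2m and Nlrc5 share none.

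Sums over copies are less exposed to the sharing between copies. The 5 heavy chain members together gave 977 FPKM with WT APCs and 1546 FPKM with OX40L-TG APCs, a ratio of 1.58. The 16 class I heavy chain genes picked from the table by symbol gave 1069 and 1709 FPKM, a ratio of 1.60. Features without a symbol were left out of this sum. H2-K1 and H2-D1 held 80.2% of that family sum with WT APCs and 78.2% in the second library, and the 5 genes of the merged H2-Q locus held 6.11% and 9.03%. The summed heavy chain level was thus about as much higher as the single classical genes.

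B2m encodes beta 2 microglobulin, the light chain of class I molecules. It had the highest level of the members, 853 FPKM with WT APCs and 1289 FPKM with OX40L-TG APCs, ranking 53 and 41 among all annotated genes. The ratio was 1.51 (1.48 to 1.54). Its level over the summed level of the 5 heavy chain members was 0.873 in the WT-APC library and 0.834 in the OX40L-TG-APC library. Light chain and heavy chain transcripts therefore kept nearly the same proportion in both libraries. The locus printed for B2m (chromosome 2, 122120107 to 122186189) spans 3 protein-coding genes of the RefSeq annotation.

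Nlrc5 encodes the class I transactivator, a NOD-like receptor family protein related to the class II transactivator CIITA. It was the lowest of the members, at 10.04 and 16.7 FPKM (chromosome 8, 94472762 to 94527272), and its ratio of 1.66 (1.56 to 1.76) was the highest after that of H2-Q7. Its relative Ciita was at least 2-fold lower, at 3.69 FPKM with WT APCs and 1.28 FPKM with OX40L-TG APCs. The class I and class II transactivator genes thus lay on opposite sides of the median of all genes.

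Tap1 and Tap2 encode the subunits of the peptide transporter. Tap1 (chromosome 17, 34187555 to 34197225) stood at 75.9 and 118 FPKM, with a ratio of 1.55 (1.499 to 1.60). Tap2 (chromosome 17, 34204478 to 34216321) stood at 46.1 and 63.0 FPKM, with a ratio of 1.37 (1.31 to 1.42). Both were higher, and the level of Tap1 over that of Tap2 was 1.65 in the WT-APC library and 1.87 in the OX40L-TG-APC library. Psmb9, an immunoproteasome gene, starts divergently from Tap1, and their windows share 225 bases (chromosome 17, 34187331 to 34187555). It stood at 76.4 and 137 FPKM, with a ratio of 1.80 (1.71 to 1.89).

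Tapbp went the other way. Tapasin transcripts stood at 81.6 FPKM with WT APCs and 61.6 FPKM with OX40L-TG APCs (chromosome 17, 33919477 to 33929290), 1.33-fold lower, with a ratio of 0.754 (0.726 to 0.783). That change of -0.40 lay above 5.49% of the changes of all genes. The level of Tapbp over that of Tap1 was 1.08 in the WT-APC library and 0.523 in the OX40L-TG-APC library. Tapbpl, which encodes the tapasin-related peptide editor TAPBPR, was higher instead, at 19.1 and 29.3 FPKM, a ratio of 1.53 (1.42 to 1.65). Windows of 50 bases shared with other genes made up 21.02% of the Tapbp transcript, and the gene model Gm19412 alone held 18.99%, so its level is uncertain too.

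**Figure D4:**
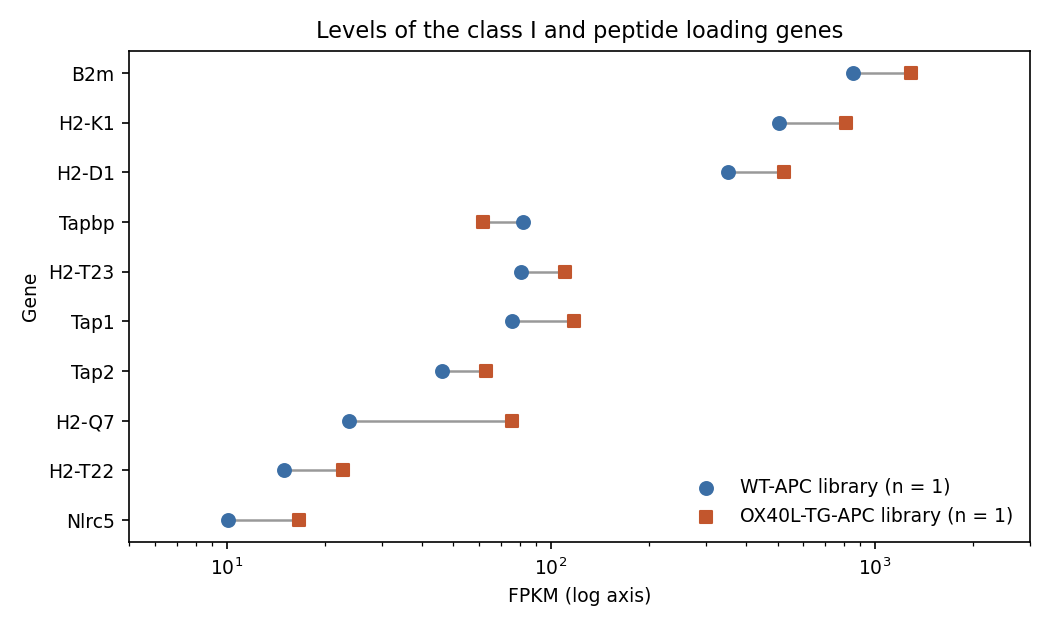
FPKM of the 10 genes (log x axis) in the WT-APC library (circles) and the OX40L-TG-APC library (squares), 1 library each, joined by a line. The OX40L-TG-APC value is the higher one for 9 genes, from Nlrc5 (10.04 to 16.7 FPKM) to B2m (853 to 1289 FPKM), and the lower one for Tapbp.

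By level, the order with WT APCs was B2m, H2-K1, H2-D1, Tapbp, H2-T23, Tap1, Tap2, H2-Q7, H2-T22 and Nlrc5. With OX40L-TG APCs it was B2m, H2-K1, H2-D1, Tap1, H2-T23, H2-Q7, Tap2, Tapbp, H2-T22 and Nlrc5. Tapbp stood lower in the second order and H2-Q7 higher, and the top and bottom of the order were the same. Without replicates the spread needed to separate neighbours, such as Tapbp and H2-T23 with WT APCs or Tap2 and Tapbp with OX40L-TG APCs, is not known.

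Other class I genes mostly shared the direction. Of 37 listed heavy chain and class I-like genes, 16 were in the table and 12 were kept at 1 FPKM or more. Their median change was 0.47, and it became 0.36 with the median ratio set to 1 and 0.31 with equal totals. At least 25% higher were 8, at least 20% lower was 1 and at least 2-fold higher were 2. The latter were H2-Q10 and H2-Q2 (0.917 and 3.17 FPKM). H2-M3, whose product presents formylated peptides, stood at 13.6 and 17.96 FPKM, the pseudogene H2-K2 at 12.9 and 17.5 FPKM, and Mr1, which presents vitamin B metabolites, at 2.99 and 3.98 FPKM. Ulbp1, a ligand gene of the receptor NKG2D, stood at 1.30 and 3.07 FPKM. Cd1d1, which presents lipids, had the lowest change of the list at 2.52 and 1.52 FPKM, and Procr (1.53 and 1.54 FPKM) hardly differed. Hfe, Fcgrt, Azgp1 and H2-M2 were under 1 FPKM in both libraries. H2-T-ps, a class I gene outside the list, stood at 18.4 and 40.7 FPKM. It is the only heavy chain gene in the authors' deposited table of 398 genes, with a log2 ratio of 1.18 and a p-value of 0.0252 for these libraries, and none of the 10 members is in that table. The authors' deposited table holds no log2 ratio smaller than 1.00 in size and no p-value over 0.04985. Only H2-Q7 among the members was past 2-fold, so the absence of the other 9 says nothing of their p-values. H2-Q7 is absent as well, although its ratio of 3.18 was larger than the 2.21 of H2-T-ps. Why the authors' comparison leaves it out is not given in the sources used here. Features without a symbol were not looked up there.

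Peptide loading partners and chaperones of the endoplasmic reticulum differed little. Of 21 genes, 3 were at least 25% higher, none was 20% lower and none reached 2-fold. Their median change of 0.12 was close to that of all genes and became -0.05 with equal totals. Tapbpl had the highest change, followed by P4hb, a protein disulfide isomerase gene (273 and 402 FPKM), and Hsp90b1, a chaperone gene (196 and 248 FPKM). The class I chaperone genes differed by less than 25%, with Calr (calreticulin) at 370 and 374 FPKM, Canx (calnexin) at 143 and 175 FPKM and Pdia3 (ERp57) at 110.2 and 106 FPKM. Erap1, which trims peptides to the length that class I binds, had the lowest change at 31.5 and 26.9 FPKM. The chaperone gene Hspa5 stood at 251 and 254 FPKM, and the other 13 genes had changes between -0.14 (Ide) and 0.30 (Bcap31).

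In the list of immunoproteasome and proteasome genes, which supply the peptides, 4 of 10 were at least 25% higher and none was 20% lower. Of all genes, 21.5% were higher and 7.14% lower by these bounds. The list median of 0.31 became 0.19 with the median ratio set to 1 and 0.13 with equal totals. Psmb9 had the highest change and Psmb8 stood at 170 and 270 FPKM, with a ratio of 1.59 (1.54 to 1.63). Psmb10, the third immunoproteasome subunit gene, differed less, at 58.2 and 65.8 FPKM. The activator gene Psme1 stood at 181 and 239 FPKM, and Psme3, with the lowest change, at 75.2 and 69.4 FPKM.

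Genes of the factors that bind class I promoters were mostly level. Of 19, 1 was at least 2-fold higher and 1 at least 2-fold lower, and the other 17 stayed within 25% higher and 20% lower. The higher call was lost with equal totals, and the lower call was lost at a pseudocount of 5 and among genes of at least 5 FPKM. Their median of 0.06 became -0.06 under median ratio scaling and -0.11 with equal totals. Irf8, an interferon regulatory factor gene, was the higher one, at 28.4 and 64.1 FPKM, a ratio of 2.26 (2.14 to 2.38), and Ciita the lower one. Irf1, whose product binds the interferon element, stood at 55.3 and 68.8 FPKM, and Rfx5, which encodes an X box factor, at 11.02 and 10.6 FPKM. The NF-kB subunit genes Nfkb1 (84.4 and 84.7 FPKM) and Rela (45.6 and 42.4 FPKM) hardly differed.

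Interferon signalling and response genes, many of which share the interferon element with class I promoters, went both ways. Of 28 kept genes, 10 were at least 25% higher and 3 at least 20% lower, where 21.5% and 7.14% of all genes were. Their median of 0.17 became 0.07 with the median ratio set to 1 and 0.02 with equal totals. None of the 28 reached 2-fold on the FPKM + 1 scale. At a pseudocount of 0.1, and also with equal totals, 1 was at least 2-fold lower. The plain ratio was past 2-fold for Irf7, at 0.468 (0.364 to 0.592), and for Isg15, at 2.04 (1.13 to 3.99). Highest were Igtp, a GTPase gene (46.9 and 93.8 FPKM), and Bst2, which encodes tetherin (39.4 and 74.9 FPKM). Lowest were the guanylate binding protein gene Gbp3 (16.03 and 8.44 FPKM), Irf7 (3.64 and 1.70 FPKM) and Gbp2 (449 and 280 FPKM). Ifng, the gene of interferon gamma, stood at 1.46 and 1.78 FPKM.

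**Figure D5:**
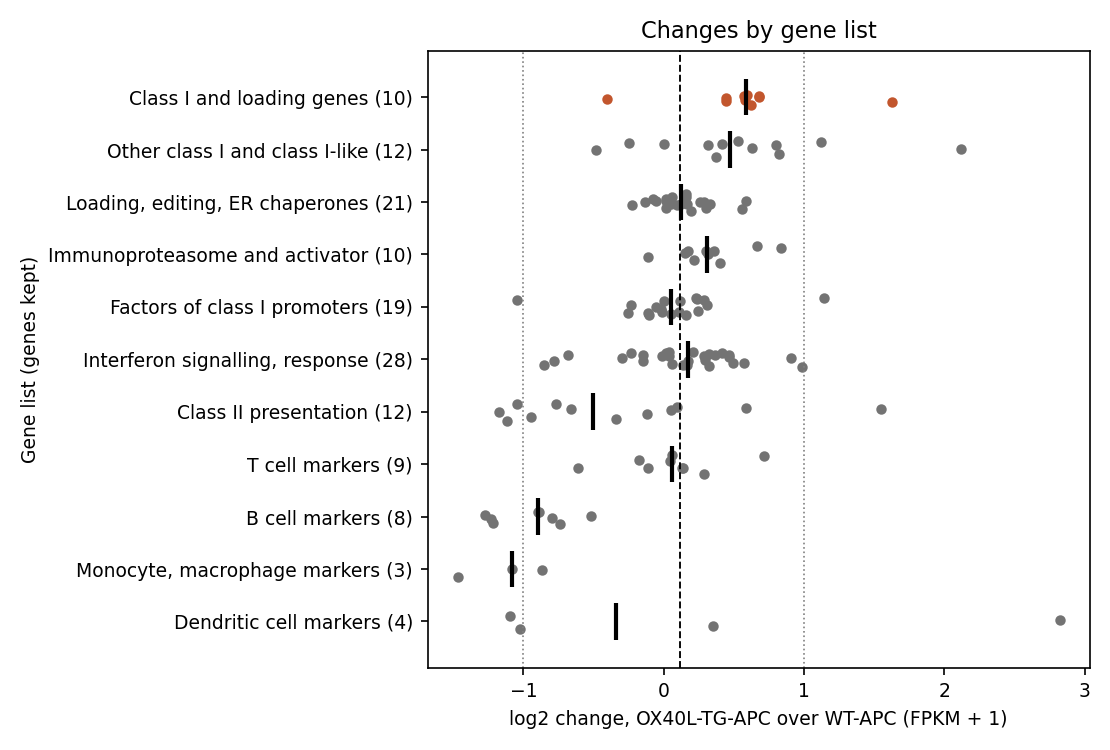
Change of each kept gene (points, log2 of FPKM + 1) by list, with the number of genes in brackets, the median of each list as a bar, the median of all genes as a dashed line and 2-fold as dotted lines. The class I and loading genes (median 0.59) and other class I genes (0.47) lie mostly above the median of all genes, and class II (-0.50) and B cell genes (-0.89) mostly below it.

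Class II genes, which antigen presenting cells express, mostly lay lower, with a median of -0.50 over 12 genes. At least 2-fold lower were 3 (H2-Aa, H2-Eb1 and Ciita), and at least 2-fold higher was 1 (H2-Oa). The list was mixed, since 7 genes were at least 20% lower but H2-DMa was higher (15.4 and 23.7 FPKM, WT-APC first). Smaller differences were seen for 3 genes, H2-Ab1 (92.7 and 98.9 FPKM), Ctss (61.5 and 63.7 FPKM) and H2-DMb1 (3.62 and 3.26 FPKM). B cell markers were lower as well: 8 of 10 were kept, all 8 were at least 20% lower, and their summed level over all 10 was 53.6 FPKM with WT APCs and 23.3 FPKM with OX40L-TG APCs. The 10 monocyte and macrophage markers summed to 10.8 and 3.06 FPKM, with C1qa, C1qb and Fcgr1 under 0.2 FPKM in both libraries. The 9 dendritic cell markers summed to 168 and 218 FPKM, of which Ccr7, also a T cell gene, made up 147 and 188 FPKM. The transcription factor gene Batf3 was at least 2-fold higher in the OX40L-TG-APC library (2.18 and 21.5 FPKM), whereas Cd86, which encodes a costimulatory ligand (13.4 and 6.07 FPKM), and the receptor gene Flt3 (3.46 and 1.09 FPKM) were at least 2-fold lower. Only Ccr7, Batf3 and Zbtb46 (0.788 and 0.934 FPKM) had higher values in that library, and the other 6 markers had lower ones. Clec9a and Siglech were listed at 0 in the OX40L-TG-APC library, but already stood at only 0.0249 and 0.0511 FPKM in the WT-APC library. The intervals of their ratios, 0 to 4.65 and 0 to 2.11, included 1, so these zeros do not show a loss. T cell markers were high in both, at 1945 and 2118 FPKM summed over 9 genes. Their median change of 0.06 became -0.06 under median ratio scaling and -0.12 with equal totals. The sum and median hide differences in both directions. Cd2 had the highest change, at 248 and 407 FPKM, a ratio of 1.64 (1.59 to 1.69). Cd28 had the lowest, at 217 and 142 FPKM, a ratio of 0.653 (0.640 to 0.666). The other 7 markers had ratios from 0.882 (Cd3e) to 1.22 (Cd4). The CD8 T cell genes Cd8a and Cd8b1 summed to 7.02 and 6.33 FPKM, and natural killer cell and neutrophil markers to 9.96 and 7.86 FPKM and to 4.90 and 2.56 FPKM. The part of these cell types in the class I differences was not tested. In bulk RNA, fewer cells of a type and less RNA per cell cannot be told apart.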

How the data were processed

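RNA was sequenced from 1 culture per condition. The submitters' processing notes name TopHat2, Cuffdiff and build mm9. Their versions, the annotation, the use of strand and the handling of multiple matches are not given in the sources used here. The deposited table gives FPKM per gene, the unit of its column headers. A second table deposited by the authors gives the log2 ratio and p-value of their own comparison for 398 genes. The printed loci of all 10 members overlapped the GRCm38 gene, 4 with a start within 1 base, so the coordinates, copied from the authors' table, follow GRCm38 although the notes name mm9.

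Symbols came from a RefSeq table (GRCm38.p6), which held 13030 of 13056 Entrez identifiers. Changes used a pseudocount of 1 FPKM and genes that reached 1 FPKM in one library or both. With 1 library per condition no test was made. Depth was estimated from 88 genes with 1 annotated transcript of at least 1500 bases and values under 0.3 FPKM: 76.1% of their ratios were ratios of whole fragment numbers within 0.2%, against 5.68% at a shifted ratio. Fragments per gene used the longest transcript with a RefSeq accession, with no correction for fragment length. Reading frames were aligned with Biopython 1.88. The members, the context lists and the rule for named genes (all 10 members, and of each context list the genes past 2-fold and the highest and lowest change, with every measured gene of the heavy chain and loading lists by value or range) were chosen with earlier results of these data known. A few list genes beyond this rule were named after their values were seen. Alternatives were other pseudocounts (0.1 and 5), filters (none and 5 FPKM) and scalings.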

Additional observations from a re-analysis of the deposited data

How the results depend on the processing

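The direction of each of the 10 members and the counts of members past 2-fold (1 higher, 0 lower) were the same under both other pseudocounts and both other scalings, and the counts also under both other filters. The members' median was 0.47 with the median ratio set to 1 and 0.41 with equal totals, and the log2 ratio of the summed heavy chains was 0.54 instead of 0.66 with the median ratio set to 1. Restricting the median to the 6 members whose printed locus holds 1 protein-coding gene gave 0.60, leaving out the heavy chains gave 0.595 and the heavy chains alone gave 0.58. The pseudocount moved the counts over all genes most: 405 were at least 2-fold higher and 251 lower at 0.1, and 101 and 39 at 5, against 241 and 141. List medians that changed sign did so for peptide loading genes (-0.046 with equal totals), promoter factors (-0.059 with the median ratio set to 1, -0.11 with equal totals), T cell markers (-0.058 and -0.12) and dendritic cell markers (0.35 at 5 FPKM or more, where fewer genes were left, against -0.34). Changes in a list median of up to 0.1 were counted as the same. Counts of list genes past 2-fold moved by no more than 1.5 times in 138 of 156 cases. Most of these 138 were counts of 0 that stayed at 0, and counts that were not 0 moved more often. The share therefore says little of the lists that had genes past 2-fold. The members' counts at 25% higher or 20% lower under these settings were added after the data were seen. The authors' own table lists no member, so no value could be taken from it, and there was no replicate to leave out. No paired analysis was possible because each condition had 1 library. Counting error was small beside the changes for the members, and variation between cultures, which sets how far they can be trusted, was not measured.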

Other observations

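The loci printed for the members also hold 10 features that could not be paired with a symbol, of which 4 reached 1 FPKM in either library. The highest of them, an Entrez identifier at the locus of H2-T22 and H2-T23, stood at 10.21 FPKM with WT APCs and 17.7 FPKM with OX40L-TG APCs, a ratio of 1.74. Another, at the locus of H2-D1, was listed at 0 in both libraries.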
